A study of Mus musculus with 10 samples.

Results

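A set of 38 genes of glycolysis and of the response to low oxygen was followed in the ameloblasts and the stratum intermedium of the mouse enamel organ, with and without claudin-10. The members were taken by gene symbol, and all 38 were listed in both deposited tables, among 15625 genes listed in both. They comprised 4 transporters of glucose and lactate, 16 glycolytic enzymes, 4 regulators of glycolytic flux, 4 genes of the hypoxia-inducible factors (HIF) and their prolyl hydroxylases, and 10 further genes known as hypoxia responsive. All 38 passed the filter on low values in every comparison. A second row labelled Aldoa, with values between 15.8 and 91.5 and listed in ameloblasts alone, carried another gene identifier and was left out.

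Glycolysis splits glucose to pyruvate, which is either reduced to lactate and exported or burned in mitochondria. When oxygen is short, prolyl hydroxylases no longer mark HIF subunits for destruction, and HIF then switches on glucose transporters, glycolytic enzymes and genes such as Bnip3, Ndrg1 and the collagen prolyl 4-hydroxylases. Blood vessels lie along the outer side of the enamel organ, so the stratum intermedium is nearer to them than the ameloblasts in front of it.

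Ameloblasts secrete and then mature the enamel matrix. Both layers were laser-captured separately from frozen slides of hemi-mandibles, and polyA RNA was sequenced in 5 libraries per layer, 3 from claudin-10 knockout (KO) mice and 2 from wild type (WT) mice. Claudin-10 forms ion-selective channels in tight junctions, and the KO genotype is the one difference between the groups that the labels name. Age, strain, the deleted part of the gene and the captured stage of enamel formation are absent from the labels used here. The library names carried the prefixes KO1, KO3, KO9, WT10 and WT5, each present in both layers and taken here as 1 mouse, an assumption that no label states. Where libraries shared a mouse, the p-values would cover the spread among libraries alone, part of which may be technical.

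The values were normalized counts that summed to between 21006977 and 26856177 per library, and the read depth behind them is unknown. Cldn10 stood at 1003, 387 and 465 normalized counts in the KO stratum intermedium, against 7257 and 2365 in WT, and at 280.1, 408 and 149 in KO ameloblasts, against 600.1 and 752 in WT (prefixes in the order above). Ameloblast markers made up 0.136% to 0.957% of the summed values in the stratum intermedium and 2.25% to 9.19% in ameloblasts. Markers of the stratum intermedium itself made up 0.152% to 0.401% in that layer and 0.0834% to 0.194% in ameloblasts, with 0 of 6 past the threshold between the layers. Prefix KO1 was the single prefix of library group 3, a number in the library names that is not explained. KO1 and KO3 carried Xist, at 5791 or more, whereas KO9, WT10 and WT5 carried the Y-linked gene Ddx3y, at 1980 or more. By these genes KO1 and KO3 were female, and KO9 and both WT prefixes were male, so sex was not balanced between the genotypes.

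Per kilobase of exon, the same 8 enzymes had the highest medians in both layers, namely Aldoa, Tpi1, Pgk1, Pgam1, Eno1, Pkm, Ldha and Ldhb. The lengths were those of all annotated exons of a gene, merged, and not of the transcripts expressed here. The ranks depend on that choice. Aldoa, which cleaves fructose 1,6-bisphosphate, had the highest median of all 38, at 7287 normalized counts per kb in the stratum intermedium and 8181 in ameloblasts. Ldhb, the lactate dehydrogenase subunit typical of lactate-consuming tissues, ranked 2 in the stratum intermedium with a median of 5497 per kb and 6 in ameloblasts with 3345 per kb. Pgam1, which moves the phosphate of 3-phosphoglycerate, ranked 6 in the stratum intermedium with 3462 per kb and 2 in ameloblasts with 7983 per kb. Eno1, Pkm and Ldha held ranks 3 to 5 in both layers, and their libraries overlapped widely. At the low end, Slc2a3, a neuronal-type glucose transporter, had medians of 23.3 per kb in the stratum intermedium and 10.8 per kb in ameloblasts.

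The stratum intermedium differed from ameloblasts in 7 of the 38 members. Ndrg1, P4ha2, Hk2, Pgam1, Bnip3 and Pdk3 were lower in the stratum intermedium, and Ldhb was higher. The differences of these 7 members on the log2 scale ran between -2.13 and 0.93. Values of both tables were rescaled to a common level, and the layers were compared within each prefix by limma, with p-values adjusted by the Benjamini-Hochberg method over 15567 genes and a threshold of 0.05. Of these genes 8.14% passed the threshold, 3.39% higher and 4.75% lower in the stratum intermedium, against 18.4% of the members. The median member difference was -0.14, against 0.01 over all genes, with 24 negative and 14 positive differences. The stratum intermedium was lower in all 5 prefixes for 10 members (26.3%, against 10.6% of all genes) and higher in all 5 for 5 members (13.2%, against 10.5%). The 2 tables had been normalized separately: the rescaling removes a constant factor per library but not a factor per gene, and the values could not be traced to whole reads. Both libraries of a prefix carried the same library group, so each layer difference was taken within a group. In bulk RNA of a captured layer, fewer cells of a type and less RNA per cell cannot be told apart.

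**Figure D1:**
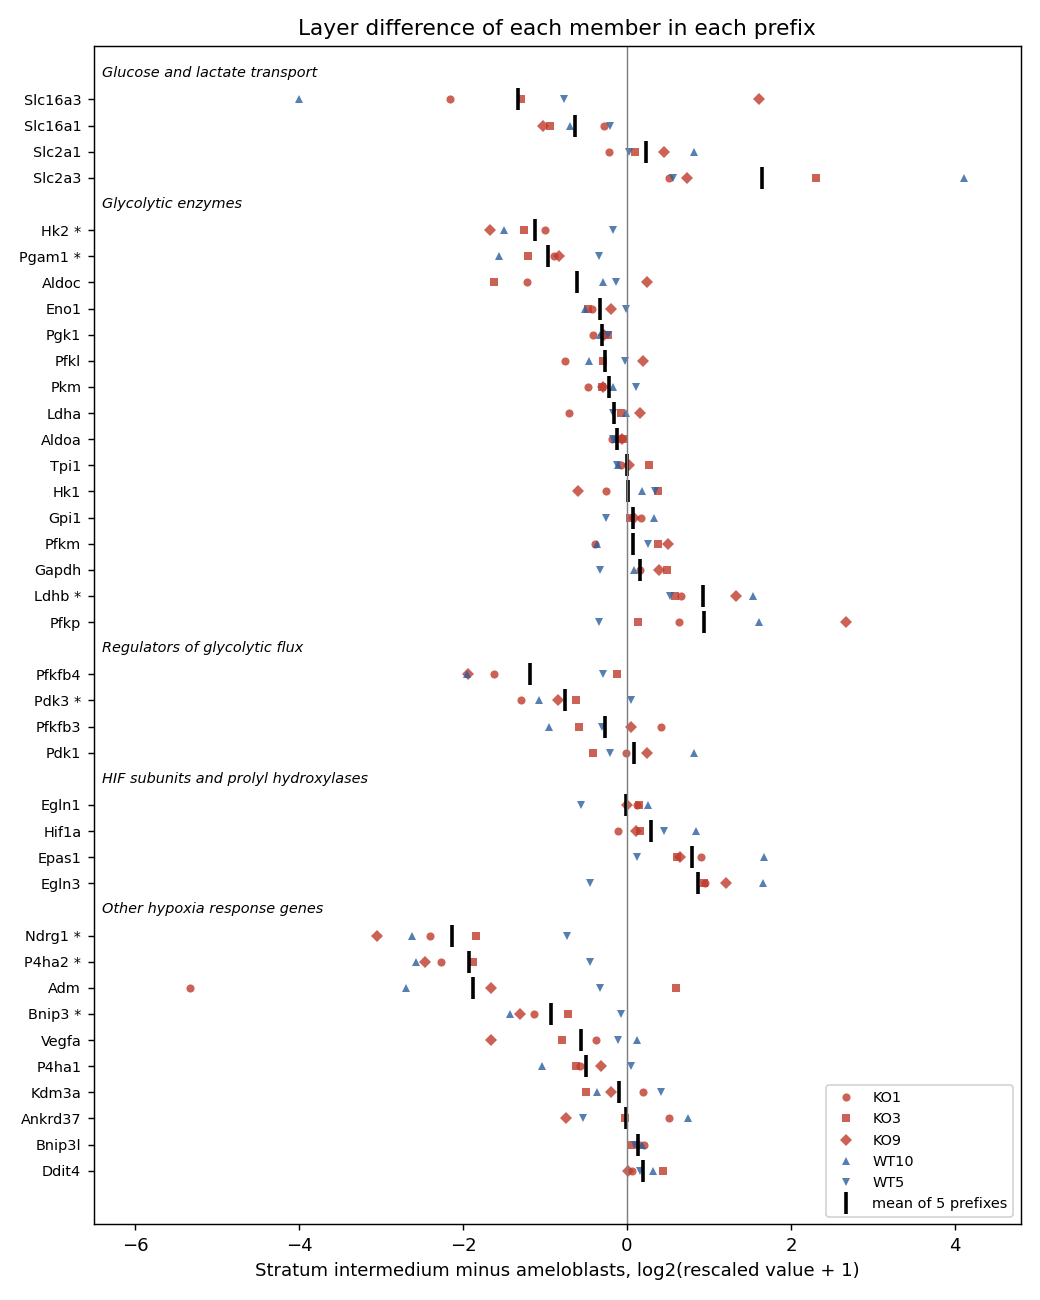
Stratum intermedium minus ameloblast difference of log2(rescaled value + 1) for each of the 38 members, grouped by role, with 1 symbol per prefix (red KO, blue WT) and a black bar for the mean of 5 prefixes; a star marks an adjusted p under 0.05. The starred members lie left of 0 except Ldhb, and the WT5 symbol lies nearest to 0 in all 7.

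Ndrg1, a stress and hypoxia induced gene of the N-myc downstream regulated family, had the largest difference of the members past the threshold (chromosome 15, 66929318 to 66969640, minus strand, GRCm38). It stood at 3453, 2980, 936, 2917 and 3120 rescaled counts in the stratum intermedium of KO1, KO3, KO9, WT10 and WT5, against 18323, 10713, 7720, 17911 and 5196 in the ameloblasts of the same prefixes. All 5 stratum intermedium libraries lay below all 5 ameloblast libraries. Its mean was 2681 ± 997 over the stratum intermedium libraries and 11973 ± 5941 in ameloblasts (SD, n = 5 each). The log2 difference was -2.13 (SE 0.29, limma adjusted p = 0.011), a level of 22.9% of that in ameloblasts, and its sign was shared by 5 of 5 prefixes. Exons of Gm2895 lie opposite those of Ndrg1, and the sources used here do not say whether the counting used strand.

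P4ha2 and P4ha1 encode the catalytic subunits of collagen prolyl 4-hydroxylase, which hydroxylates procollagen and needs oxygen to do so. P4ha2 (chromosome 11, 54100095 to 54131665, plus strand) had 6974, 4277, 2026, 2578 and 5583 rescaled counts in the stratum intermedium of KO1, KO3, KO9, WT10 and WT5, against 33563, 15673, 11138, 15289 and 7634 in ameloblasts. Again no stratum intermedium library reached the lowest ameloblast library. P4ha2 fell by 1.92 on the log2 scale (SE 0.28, limma adjusted p = 0.011), to 26.4% of the ameloblast level, in 5 of 5 prefixes. P4ha1 had a difference of -0.49 (SE 0.16) that did not pass, with a limma adjusted p of 0.0939. The log2 ratio of P4ha2 to P4ha1 within a library cancels a factor per library but not a factor per gene. This ratio was -0.02 to 1.41 in the stratum intermedium and 0.72 to 2.94 in ameloblasts, lower in the stratum intermedium of each prefix.

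Bnip3 encodes a mitochondrial outer membrane protein of mitophagy and is a classical HIF target. Its values were 8256, 3676, 1706, 1976 and 3854 rescaled counts in the stratum intermedium of KO1, KO3, KO9, WT10 and WT5, against 18059, 6042, 4197, 5313 and 4049 in ameloblasts. The layers overlapped, since KO1 stood far above the other prefixes in both, while within each prefix the stratum intermedium was lower. Bnip3 (chromosome 7, 138890836 to 138909519, minus strand) fell by 0.93 on the log2 scale (SE 0.19, limma adjusted p = 0.0269). Its relative Bnip3l (NIX) had a difference of 0.13 (SE 0.10, limma adjusted p = 0.453), and the log2 ratio of Bnip3 to Bnip3l was lower in the stratum intermedium of each prefix, with differences between -1.60 in WT10 and -0.18 in WT5.

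The other hypoxia response genes did not pass the threshold between the layers. Vegfa, the main angiogenic growth factor, was low in both layers, at 27.2 to 106 rescaled counts in the stratum intermedium and 65.2 to 97.2 in ameloblasts, with a difference of -0.56 (SE 0.40). Adm, which encodes the vasodilator peptide adrenomedullin, was listed at 0 in the stratum intermedium of KO1. It ranged up to 138 in that layer and between 39 and 224 in ameloblasts, with a difference of -1.88 (SE 0.80, limma adjusted p = 0.194). Ddit4, an inhibitor of mTORC1, and Kdm3a, a histone demethylase, had differences of 0.20 (SE 0.14) and -0.09 (SE 0.17). Ankrd37 had a difference of -0.01 (SE 0.42), and its exons overlap those of Ufsp2 on the opposite strand.

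Among the 16 enzymes, 3 passed the threshold: Hk2 and Pgam1 were lower in the stratum intermedium and Ldhb was higher. Hk2, the inducible hexokinase that traps glucose as glucose 6-phosphate (chromosome 6, 82725025 to 82774454, minus strand), had 758, 686, 571, 1041 and 1057 rescaled counts in the stratum intermedium of KO1, KO3, KO9, WT10 and WT5, against 1520, 1642, 1818, 2945 and 1188 in ameloblasts. No library of the stratum intermedium reached the lowest ameloblast value. Hk2 fell by 1.12 on the log2 scale (SE 0.21, limma adjusted p = 0.0217), to 46.0% of the ameloblast level. Hk1, the housekeeping hexokinase, had a difference of 0.01 (SE 0.20).

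Pgam1 (chromosome 19, 41911923 to 41918660, plus strand) had 13540, 6862, 5465, 6277 and 7891 rescaled counts in the stratum intermedium of KO1, KO3, KO9, WT10 and WT5, against 25092, 15823, 9664, 18566 and 10027 in ameloblasts. The layers overlapped through KO1, whose stratum intermedium exceeded the ameloblasts of KO9 and WT5. Pgam1 fell by 0.97 on the log2 scale (SE 0.17, limma adjusted p = 0.0172), to 51.2% of the ameloblast level, in 5 of 5 prefixes. Its reads could be shared with near-identical pseudogenes or copies.

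Ldhb was the one member past the threshold with a higher level in the stratum intermedium (chromosome 6, 142490249 to 142507957, minus strand). It had 13041, 7909, 8631, 9727 and 8441 rescaled counts in the stratum intermedium of KO1, KO3, KO9, WT10 and WT5, against 8226, 5252, 3440, 3350 and 5888 in ameloblasts. The layers overlapped at one point, where the ameloblasts of KO1 exceeded the stratum intermedium of KO3. The difference was 0.93 on the log2 scale (SE 0.17, limma adjusted p = 0.0198), a ratio of 1.90, with 5 of 5 prefixes higher. Ldha, the subunit that favours lactate formation, had a difference of -0.16 (SE 0.14). The log2 ratio of Ldhb to Ldha within a library ran between -0.86 and 0.15 in the stratum intermedium and between -2.00 and -1.30 in ameloblasts, so the layers did not overlap in this ratio.

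The other 13 enzymes did not pass. Pfkp, a phosphofructokinase subunit, had the largest difference among them at 0.94 (SE 0.41, limma adjusted p = 0.200), and Aldoc, the brain-type aldolase, had -0.60 (SE 0.29, limma adjusted p = 0.246). Pgk1 and Eno1, which act on either side of Pgam1, had smaller differences of -0.30 (SE 0.10) and -0.32 (SE 0.12), negative in 5 of 5 prefixes, with limma adjusted p-values of 0.1001 and 0.152. Aldoa, Tpi1, Gapdh, Pkm, Gpi1, Pfkl and Pfkm had differences between -0.27 and 0.16. As for Pgam1, reads of Gapdh, Aldoa, Ldha, Pgk1, Tpi1 and Eno1, among others, could be shared with near-identical pseudogenes or copies. How such reads were counted is not given. Eno1b, a near-identical copy of Eno1 in the tables, stood between 659 and 1606 normalized counts in the stratum intermedium and between 712 and 1785 in ameloblasts. Exons of Pkm and Pfkm overlap those of Gm49759 and Gm26513 on the same strand.

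**Figure D2:**
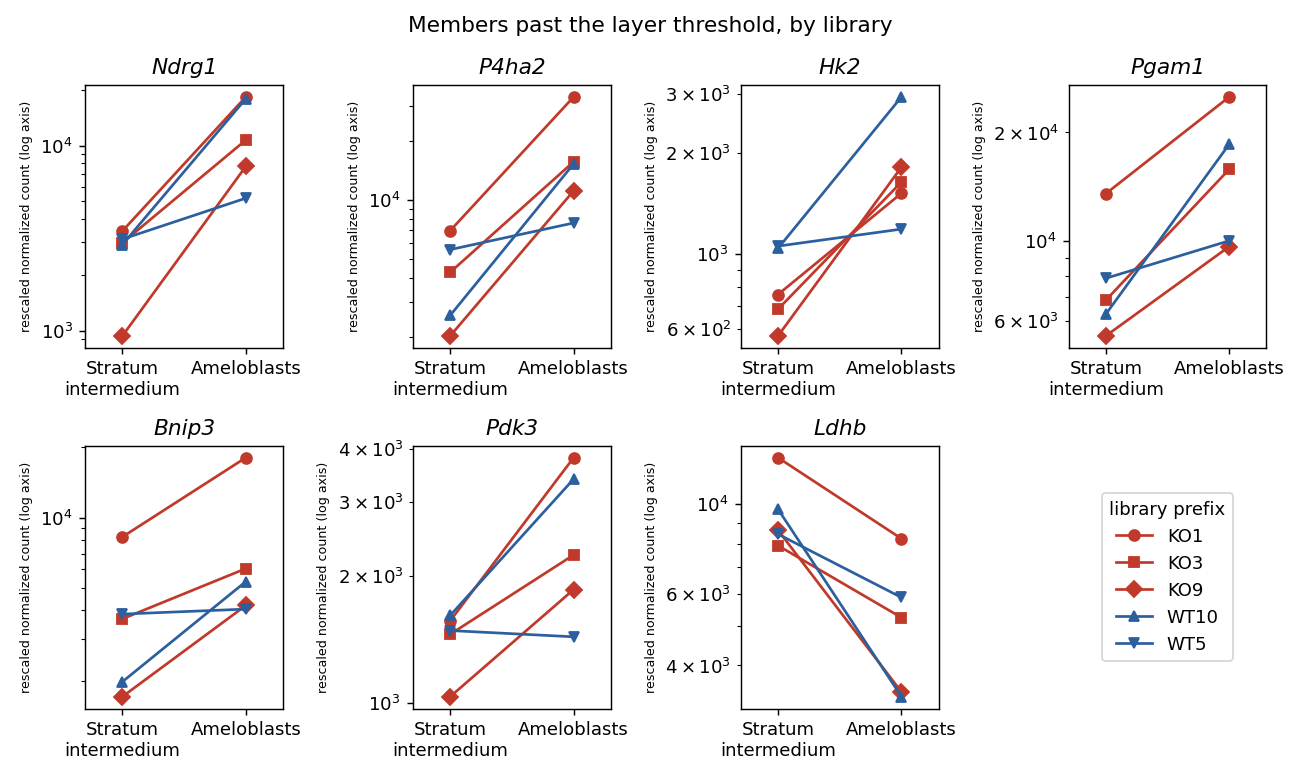
Rescaled normalized counts (log axis) of the 7 members past the layer threshold, with 1 line per prefix joining its stratum intermedium and ameloblast libraries (red KO, blue WT). Lines climb to the ameloblast side for 6 members, except the WT5 line of Pdk3 (stratum intermedium 1483, ameloblasts 1433), and drop for Ldhb, and the WT5 lines are the flattest.

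Of the regulators of flux, Pdk3 passed the threshold. It encodes a kinase that shuts off pyruvate dehydrogenase and with it the entry of pyruvate into mitochondria. Pdk3 (chromosome X, 93764607 to 93832201, minus strand) had 1564, 1453, 1033, 1611 and 1483 rescaled counts in the stratum intermedium of KO1, KO3, KO9, WT10 and WT5, against 3819, 2243, 1856, 3397 and 1433 in ameloblasts. Its layers overlapped through WT5, where the stratum intermedium was level with the ameloblasts. Pdk3 fell by 0.76 on the log2 scale (SE 0.19, limma adjusted p = 0.0463), in 4 of 5 prefixes, and lost the call with the values as deposited (limma adjusted p = 0.0815) and with equal library sums (0.0722), in a range of 0.00502 to 0.518 over 16 alternatives. The other called members also lost the call in some alternatives, with highest limma adjusted p-values between 0.436 and 0.452. Pdk1 had a difference of 0.09 (SE 0.19). Pfkfb4 and Pfkfb3, which make the activator fructose 2,6-bisphosphate, had differences of -1.19 (SE 0.38, limma adjusted p = 0.0954) and -0.27 (SE 0.29).

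No transporter passed the threshold. Slc16a1 (MCT1), a carrier of lactate and pyruvate, lay just outside it, at 695 to 827 rescaled counts in the stratum intermedium and 799.6 to 1686 in ameloblasts, with a difference of -0.63 (SE 0.17, limma adjusted p = 0.0572) and 5 of 5 prefixes lower. Slc16a3 (MCT4), the exporter of lactate in glycolytic cells, ranged between 19 and 1157 in the stratum intermedium and between 27.2 and 5172 in ameloblasts. Its layer difference was -1.32 (SE 0.65, limma adjusted p = 0.260), and its prefixes differed in sign, from -4.00 in WT10 to 1.61 in KO9. Slc2a1 (GLUT1), the main glucose transporter of epithelia, had a difference of 0.23 (SE 0.17). Slc2a3 (GLUT3) had 115 to 183 in the stratum intermedium of 4 prefixes and 16.2 in that of WT10. In ameloblasts it had 33.4 to 123 in those 4 prefixes and was listed at 0 in WT10. Its layer difference was 1.645 (SE 0.604, limma adjusted p = 0.138), positive in 5 of 5 prefixes.

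The oxygen-sensing genes did not pass either. Hif1a, the broadly expressed HIF alpha subunit, had 2676 to 3708 rescaled counts in the stratum intermedium and 1998 to 2882 in ameloblasts, with a difference of 0.29 (SE 0.15, limma adjusted p = 0.279). Exons of Snapc1l overlap those of Hif1a on the same strand, and exons of Gm15283 on the opposite strand. Epas1 (HIF-2 alpha), which is abundant in endothelium, had 688 to 1134 in the stratum intermedium and 355 to 645 in ameloblasts, no overlap between the layers, and a difference of 0.79 (SE 0.22, limma adjusted p = 0.0668). Epas1 passed with the values as deposited and with equal library sums, in place of Pdk3. The prolyl hydroxylases Egln1 and Egln3 had differences of -0.01 (SE 0.16) and 0.86 (SE 0.38, limma adjusted p = 0.213).

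Markers of several cell types also differed between the layers, and their part in the layer differences of the members was not tested. Of 9 ameloblast markers listed, 6 were lower in the stratum intermedium by the same test, and Klk4, a protease of enamel maturation, was listed at 0 in at least 1 ameloblast library. Of 10 endothelial markers 9 were higher, at 0.0431% to 0.0575% of the summed values in the stratum intermedium and 0.00972% to 0.0323% in ameloblasts, and of 6 pericyte markers 4 were higher, at 0.0314% to 0.0495% and 0.00645% to 0.0217%. Skeletal muscle markers, 4 of 10 higher, made up 0.112% to 0.738% of the stratum intermedium and 0.0199% to 0.377% of ameloblasts, where Tcap, Mb and Myh4 reached 0. Markers of odontoblasts, pulp and bone, 3 of 8 lower, made up 2.60% to 7.49% and 3.72% to 6.69%. No red blood cell, leukocyte or osteoclast marker passed.

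Prefix WT5 showed the smallest layer difference in all 7 called members, as it did in 81.1% of the 1267 called genes and 37.4% of all genes tested. In ameloblast and endothelial markers, too, the layers of WT5 stood closest: its ameloblast markers made up 0.957% of the stratum intermedium and 2.68% of the ameloblasts, and its endothelial markers 0.0431% and 0.0323%. In markers of the stratum intermedium KO3 stood closer, with 0.171% in that layer and 0.194% in ameloblasts, against 0.152% and 0.0989% in WT5. WT5 also held the largest shares of red blood cell, osteoclast, leukocyte, and odontoblast, pulp and bone markers in both layers. Its red blood cell markers made up 0.911% of the stratum intermedium, against 0.146% to 0.258% in the other prefixes. In ameloblasts they made up 1.28%, against 0.0814% to 0.244%. The part of these in its layer differences was not tested. Without WT5, 11 members passed among 2134 genes, the added ones being Epas1, Eno1, P4ha1 and Slc16a1. Without KO1 or KO9 no member passed, among 7 and 4 genes. Without KO3 Ndrg1 and P4ha2 passed among 231 genes, and without WT10 Ndrg1, P4ha2, Pgam1 and Ldhb among 425. All 7 members kept their sign in each of these fits. In a fit of the 3 KO prefixes alone the same 7 members passed among 1589 genes. For the 2 WT prefixes, with the spread taken from all libraries, 0 of 15567 genes passed. There 10 members had an unadjusted limma p under 0.05. The SE of Ndrg1 was 0.215 in the KO fit and 0.441 in the WT fit, so the 2 counts are not comparable.

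Promoter windows are shown for 4 of the called members, 3 of them lower and 1 higher in the stratum intermedium, as examples of the motif bound by HIF, A or G followed by CGTG. Windows of 250 bases before a transcription start were taken from RefSeq (GRCm38.p6), printed 5′ to 3′ on the strand of the gene, with capitals marking ACGTG or GCGTG on either strand (CACGT or CACGC when read from the other strand), overlapping matches merged. Bnip3 lies at chr7:138909507-138909756 (minus), P4ha2 at chr11:54100674-54100923 (plus), Pgam1 at chr19:41911621-41911870 (plus) and Ldhb at chr6:142507958-142508207 (minus). The gene positions given above came from GENCODE, and the 2 sources place some starts differently. The P4ha2 window lies inside the GENCODE gene, which starts at 54100095, and the Bnip3 window overlaps the edge of its gene, at 138909519.
Bnip3: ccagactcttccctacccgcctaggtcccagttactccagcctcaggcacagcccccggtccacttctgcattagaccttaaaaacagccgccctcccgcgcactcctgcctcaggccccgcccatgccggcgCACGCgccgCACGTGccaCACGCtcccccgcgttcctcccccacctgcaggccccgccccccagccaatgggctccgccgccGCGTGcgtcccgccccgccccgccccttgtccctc
P4ha2: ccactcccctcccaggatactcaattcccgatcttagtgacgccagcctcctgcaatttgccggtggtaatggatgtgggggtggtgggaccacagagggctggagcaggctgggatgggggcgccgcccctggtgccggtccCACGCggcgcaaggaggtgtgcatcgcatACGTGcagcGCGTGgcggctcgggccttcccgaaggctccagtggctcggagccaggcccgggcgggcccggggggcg
Pgam1: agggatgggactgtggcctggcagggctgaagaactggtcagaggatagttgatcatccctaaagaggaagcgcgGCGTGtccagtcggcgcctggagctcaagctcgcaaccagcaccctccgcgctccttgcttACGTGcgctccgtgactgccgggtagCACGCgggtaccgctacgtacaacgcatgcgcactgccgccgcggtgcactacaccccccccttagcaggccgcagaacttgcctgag
Ldhb: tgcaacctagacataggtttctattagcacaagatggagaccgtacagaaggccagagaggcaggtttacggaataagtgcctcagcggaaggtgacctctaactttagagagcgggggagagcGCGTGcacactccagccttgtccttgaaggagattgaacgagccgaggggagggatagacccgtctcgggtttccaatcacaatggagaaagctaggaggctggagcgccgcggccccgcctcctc
The windows of Bnip3, P4ha2 and Pgam1, lower in the stratum intermedium, held 4, 3 and 3 runs of capitals, and that of Ldhb, higher there, held 1. The windows of Hk2 and Pdk3, also lower and not printed, held 2 and 4, and no order is read from these counts. A window was found for 34 of the 38 members, with 50 windows in all, of which 40 (80.0%) held the motif, against 38.6% of 32851 windows of all genes. The windows of all 6 called members that had one held it, as did 77.3% of the 44 windows of the others. The match describes letters, and binding was not measured. The members were chosen as glycolysis and hypoxia response genes, and the windows were not matched for base composition. No enrichment is read from these shares.

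Other genes of the same pathways were read from lists outside the members, chosen with earlier results of these data known. Their counts stand beside the 8.14% of all genes that passed and the 24.1% at an unadjusted p under 0.05, and nothing particular to a list is read from them. Of 18 other glycolysis genes tested, 2 were higher and 2 lower in the stratum intermedium, with 7 at an unadjusted limma p under 0.05. Bsg (basigin), the chaperone that carries MCT1 and MCT4 to the membrane, averaged 24963 rescaled counts in the stratum intermedium and 55510 in ameloblasts (log2 difference -1.08, SE 0.17, limma adjusted p = 0.0131), and the glucose transporter Slc2a8 was also lower (-1.03, SE 0.20, 0.0214). Slc2a4 (GLUT4), the insulin-responsive transporter of muscle and fat, was higher (1.94, SE 0.38, limma adjusted p = 0.0233), as was the muscle enolase Eno3. Of 40 other hypoxia targets, 1 was higher and 2 lower, with 13 at an unadjusted limma p under 0.05. Plod2, a collagen lysyl hydroxylase, averaged 11721 in the stratum intermedium and 64454 in ameloblasts (log2 difference -2.34, SE 0.34, limma adjusted p = 0.011), Loxl2 had -0.67 (SE 0.15, 0.0355), and Pgf, a relative of Vegfa, had 1.72 (SE 0.29, 0.0157). Of 11 genes of pyruvate entry, Pdp2, a phosphatase that opposes the Pdk kinases, was lower (-0.78, SE 0.19, limma adjusted p = 0.0442). In that list 2 stood at an unadjusted limma p under 0.05. Of 13 genes of the HIF machinery 0 passed, with 2 at an unadjusted limma p under 0.05.

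Across mice, the members varied most with prefix KO1. KO1 had the highest of the 5 libraries in both layers for 21 of the 38 members and for 14 of the 16 enzymes, against 8.86% of all genes. The enzymes of KO1 stood a median of 0.99 above the mean of the other 4 libraries on the log2 scale in the stratum intermedium and 1.20 above it in ameloblasts, while over all genes these medians were 0.03 and 0.05. KO9 was at the other end: it was lowest in both layers for 13 members and 10 of the 16 enzymes, against 4.43% of all genes, with enzyme medians of -0.62 in the stratum intermedium and -0.77 in ameloblasts.

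The glucose transporter Slc2a1 shows the split. It had 3613, 986 and 979.8 rescaled counts in the KO stratum intermedium (KO1, KO3 and KO9), against 1109 and 875 in WT (WT10 and WT5). In ameloblasts it had 4219, 923 and 714 in KO, against 628 and 861 in WT. KO1 alone stood apart, and the other KO libraries lay among or beside the WT libraries. Pfkl, the liver-type phosphofructokinase, had 3925, 1345 and 1068 in the KO stratum intermedium, against 1083 and 2026 in WT, and 6622, 1650 and 934 in KO ameloblasts, against 1492 and 2059 in WT. Tpi1, Pgk1, Pkm and Eno1 had the same leader in both layers. Hk2 and Gapdh were the enzymes for which KO1 was not the highest in both layers. Hif1a itself stood at 2676 in the stratum intermedium of KO1, the lowest of that layer, and at 2882 in its ameloblasts, the highest there.

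**Figure D3:**
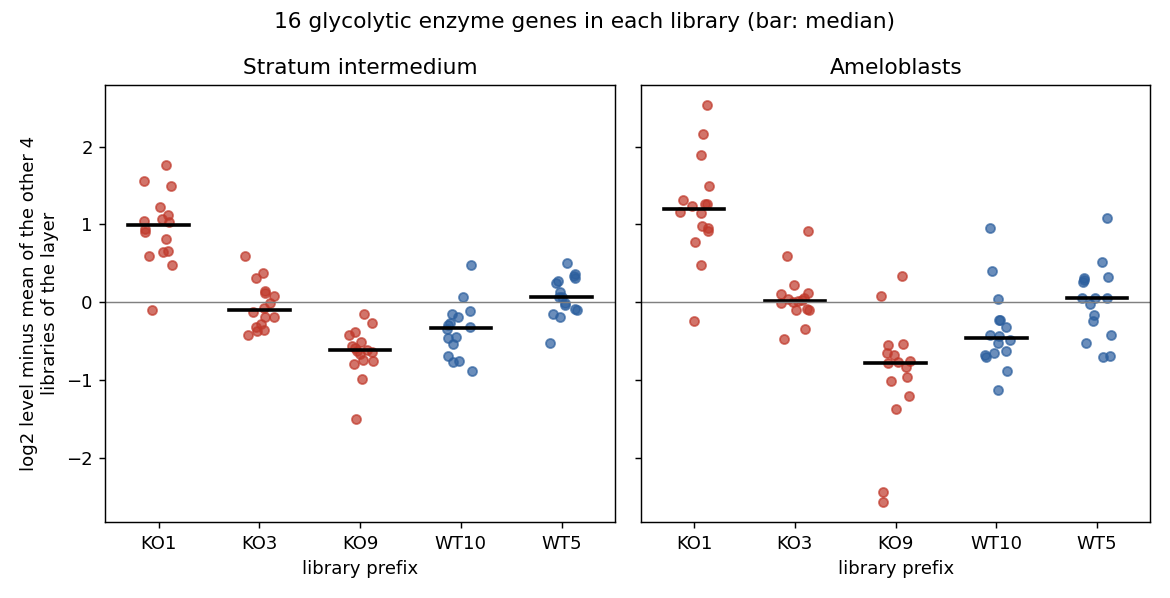
Log2 level of each of the 16 glycolytic enzyme genes minus its mean in the other 4 libraries of the same layer (points; red KO, blue WT), by prefix, with a black bar for the median over enzymes, stratum intermedium left and ameloblasts right. KO1 has medians of 0.99 and 1.20, and KO9 has medians of -0.62 and -0.77.

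What else moved with KO1 was read from the same markers. Its ameloblasts held the largest share of ameloblast markers, 9.19% against 2.25% to 4.79% in the other ameloblast libraries, and in its stratum intermedium that share was 0.809%, inside the range of the others. Skeletal muscle markers, whose tissue is rich in glycolytic enzymes, made up 0.544% of its stratum intermedium and 0.276% of its ameloblasts, below KO3 in the first layer and below WT5 in the second. Markers of the stratum intermedium made up 0.401% of that layer in KO1, against 0.152% to 0.385% in the others, and 0.173% of its ameloblasts, below KO3. The ameloblasts of KO1 held the lowest shares of red blood cell (0.0814%), osteoclast (0.102%), leukocyte (0.00881%), and odontoblast, pulp and bone (3.72%) markers. In the stratum intermedium WT10 was lower than KO1 in each of these. Mitochondrially encoded genes made up 2.61% and 1.78%, the lowest share of each layer. The part of these in the levels of KO1 was not tested, and library group 3 and the prefix KO1 cannot be told apart.

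No member passed the threshold between KO and WT in either layer. Sex, as read from Xist and Ddx3y, and library group were not balanced between the genotypes, and the main fit did not adjust for them. In the stratum intermedium 0 of 16543 genes passed (0%), with 340 genes (2.06%) at an unadjusted limma p under 0.05, and in ameloblasts 0 of 16212 passed (0%), with 498 (3.07%). Of the members, 2 stood at an unadjusted p under 0.05 in the stratum intermedium and 0 in ameloblasts. The genotypes did not overlap for 5 members in the stratum intermedium (13.2%, against 15.2% of all genes) and for 3 members in ameloblasts (7.89%, against 18.4% of all genes).

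In the stratum intermedium the 5 members with the smallest p-values were Hk2, Slc2a3, Vegfa, Egln1 and Ankrd37. Hk2 had 758, 686 and 571 rescaled counts in KO, against 1041 and 1057 in WT, with all KO libraries below both WT libraries (log2 difference -0.65, SE 0.24, limma unadjusted p = 0.0287, adjusted p = 1.00). Slc2a3 had 177, 169 and 183 in KO, against 16.2 and 115 in WT, with all KO above WT (1.99, SE 0.82, limma unadjusted p = 0.0442). The difference of Slc2a3 was 0.60 without WT replicate 1 (WT10), the lowest of 13 alternatives. Vegfa had 50.03, 49.3 and 27.2 in KO, against 106 and 84.3 in WT (-1.20, SE 0.65), Egln1 had 963, 833 and 806 in KO, against 694 and 667 in WT (0.34, SE 0.23), and Ankrd37 had -0.85 (SE 0.75). With 1 library left out Ankrd37 ran between -1.25 and -0.43.

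In ameloblasts the 5 were Hif1a, Slc2a3, P4ha2, Hk1 and Slc2a1, with unadjusted limma p-values between 0.109 and 0.235. Hif1a had 2882, 2475 and 2601 rescaled counts in KO, against 2064 and 1998 in WT, so all KO libraries lay above both WT libraries (log2 difference 0.38, SE 0.21, limma adjusted p = 0.989). Slc2a3 had a difference of 3.10 (SE 1.76) that rested on WT replicate 1 (WT10), where it was listed at 0, and was -0.01 without it. P4ha2 had 33563, 15673 and 11138 in KO, against 15289 and 7634 in WT (0.74, SE 0.51). With 1 library left out the difference of P4ha2 ran between 0.23 (no WT5) and 1.25 (no WT10) and was 0.29 without KO1. Slc2a1 had 0.15 and Hk1 0.29 without KO1, in place of 0.94 (SE 0.72) and 0.56 (SE 0.39).

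The sign of most enzyme differences turned when KO1 was left out. KO1 was the highest in both layers for 14 of the 16 enzymes, so leaving it out lowers their KO mean by construction. KO9, the lowest in both layers for 10 of the 16, stayed in that fit. Of 16 enzymes, 14 had a positive difference in the stratum intermedium and 14 in ameloblasts, with medians of 0.21 and 0.25 on the log2 scale. Without KO1, 4 of 16 were positive in the stratum intermedium and 2 of 16 in ameloblasts, with medians of -0.10 and -0.16. Within library group 1, KO3 minus WT5 was positive for 8 of 16 enzymes in each layer, and within group 2, KO9 minus WT10 was positive for 4 in the stratum intermedium and 2 in ameloblasts. Group 3 holds KO1 alone and gives no difference. The lists of other pathway genes held 0 called genes between KO and WT in either layer.

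**Figure D4:**
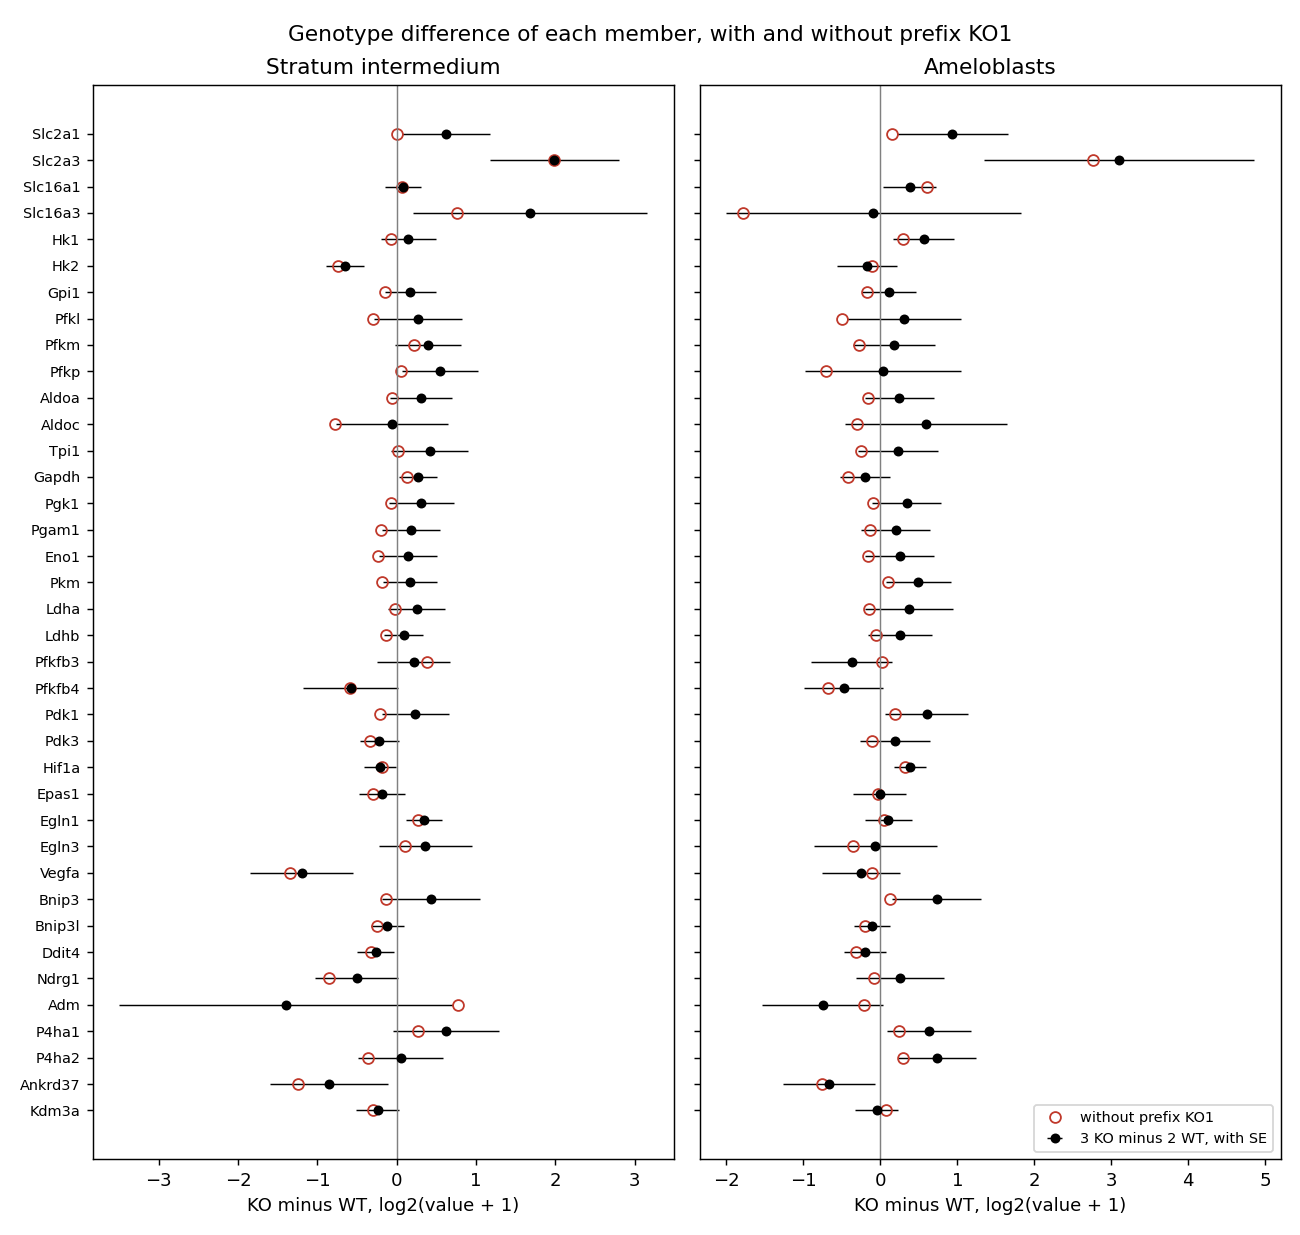
KO minus WT difference on the log2(value + 1) scale for each member in the stratum intermedium (left) and in ameloblasts (right): black points with SE for 3 KO against 2 WT libraries, open red circles without prefix KO1. The open circles of most enzymes lie to the left of their black points, with medians of -0.10 and -0.16 in place of 0.21 and 0.25.

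The layer difference was also compared between genotypes, KO prefixes against WT prefixes. The same imbalance of sex and library group applies here. Of 15567 genes 0 passed (0%), with 810 (5.20%) at an unadjusted limma p under 0.05, and of the members 0 passed, with 1 at that level. That member was Hif1a, whose stratum intermedium minus ameloblast difference was 0.06 (SE 0.15) in KO prefixes and 0.65 (SE 0.18) in WT prefixes (difference -0.60, SE 0.23, limma unadjusted p = 0.0362, adjusted p = 0.834). The next 4 members by p were Gapdh (0.46, SE 0.22), Pkm (-0.33, SE 0.21), Slc16a3 (1.77, SE 1.29) and Ndrg1 (-0.76, SE 0.57). With 1 prefix left out, Slc16a3 ran between 0.16 (no WT10) and 3.39 (no WT5), Gapdh between 0.26 (no WT5) and 0.67 (no WT10), and Pkm between -0.47 (no WT10) and -0.19 (no WT5), and Ndrg1 was 0.19 without WT5. For Ndrg1 the layer difference was -2.43 (SE 0.36) in KO prefixes and -1.68 (SE 0.44) in WT prefixes. For Ldhb it was 0.86 (SE 0.23) in KO and 1.03 (SE 0.28) in WT, and for Pgam1 -0.97 (SE 0.23) in KO and -0.95 (SE 0.28) in WT.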

How the data were processed

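RNA of laser-captured ameloblasts and stratum intermedium was compared between 3 KO and 2 WT libraries per layer. The authors deposited 1 table of normalized counts (a signal, not read counts) per layer, named as DESeq2 normalized and made without outliers. Per the submitters' processing notes reads were processed on GRCm38 with tools that included STAR 2.5.2b, featureCounts, DESeq, FastQC and Picard 2.8.1. Per the labels' protocols the library kit was stranded. Of values under 20, between 47.8% and 65.6% per library lay within 0.1 of a whole step, so whole reads were not recovered and no count test was run. Each listed gene had at least 3 libraries at 10 or more.

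KO minus WT was tested within each table on log2(value + 1) over genes whose mean reached 10, with limma 3.58.1 (trend, two-sided) in R 4.3.3 and Benjamini-Hochberg adjustment. For the layers, each library was divided by its median ratio over genes in both tables, and prefix was a block; per-library scale factors lay between 0.946 and 1.058. Deviations from group means correlated across genes between the layers of a prefix at r = 0.201 to 0.311. The deviations of WT10 and WT5 mirror each other by construction, so their shared r of 0.311 is a single result. The KO deviations of a layer cancel in sum and are not independent either. Both libraries of a prefix carried the same library group, so r cannot tell a shared mouse from a shared group. The pairing of the layers by prefix comes from the library names. Rescaled values are printed for members. Levels per kb used exon lengths of GENCODE M21. Columns left unused numbered 0. Figures used matplotlib 3.10.9 in Python 3.11.15.

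The members and lists were chosen with earlier results of these data known. Members past the threshold were described in full, or else the 5 with the smallest p, and at most 3 other genes per list. Alternatives were pseudocounts of 0.5 and 8, filters, scalings, blocks and leaving out libraries or prefixes.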

Additional observations from a re-analysis of the deposited data

How the results depend on the processing

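The 7 layer calls kept their direction in each of the 16 alternatives, and the counts of calls moved with the libraries used. Leaving out 1 prefix at a time gave 4 to 2134 genes and 0 to 11 members. With no replicate block, 730 genes and 3 members (Ndrg1, P4ha2 and Hk2) passed, and with the replicate number as the replicate block 568 genes and the same 3 members passed. WT prefixes alone gave 0 genes and 0 members, which take their spread from all libraries. Scaling moved the split of calls: 41.7% of called genes were higher in the stratum intermedium in the main scaling, 46.3% with quantile normalization, 64.0% as deposited and 69.6% with equal library sums, where the median of all genes shifted by 0.15 (deposited) and 0.25 (equal sums). Each of these scalings called 7 members.

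Between KO and WT, 1 ameloblast gene passed without WT replicate 2, a fit that leaves 1 WT library and assumes that it varies like the KO libraries; leaving out other libraries gave 0. With 1 library left out, Slc2a3 in ameloblasts ranged from -0.013 (no WT replicate 1) to 6.21 (no WT replicate 2). For the difference between genotypes of the layer difference, 0 to 2 genes passed with 1 prefix left out, 2 of them without WT5, and Ndrg1 ranged from -1.70 without WT10 to 0.19 without WT5. The replicate number as a replicate block gave 0 called genes and 0 called members in both layers. Deviations of KO and WT libraries sharing a number correlated at 0.0862 and -0.116 in ameloblasts and at -0.186 and -0.133 in the stratum intermedium. These values do not decide whether the numbers pair KO with WT, because the WT deviations of a layer mirror each other by construction. Read depth is not known from these files and sets the precision of the low members Slc2a3, Vegfa, Adm and Ankrd37. The causes of these changes were not tested.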
